A study of Danio rerio with 13 samples.

Results

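The baseline expression of zebrafish embryo heart preparations was described from the 3 uninjected arrays of a series of 13. The arrays were taken by their label, as all those of embryos that received no morpholino. All 15502 probe sets other than the 115 control probe sets were ranked by signal within each array. The other groups of the series were injected with a control morpholino (2 arrays) or with a morpholino against atg5 (3 arrays), becn1 (3 arrays) or atg7 (2 arrays), and are not analysed here. All groups, the uninjected one included, were taken at 3 days after fertilization from embryos raised under standard conditions, and the labels give no strain, transgene or genotype. Hearts were isolated in bulk from whole embryos by a published purification method. The labels call the 3 samples biological replicates but do not say how many embryos or clutches entered each, so the spread between arrays is the spread between these preparations. They are called array 1, array 2 and array 3 after their titles.

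At this age the zebrafish heart is a beating, looped organ of an atrium and a ventricle. Its wall is made of cardiomyocytes, whose sarcomeres slide myosin along actin under the control of troponin, and it is lined by endocardium and filled with nucleated embryonic red cells. Transcription factors of the NK, GATA, T-box and Hand families set up this muscle earlier in development. Bulk purification breaks the embryo and sieves the fragments, so a preparation can carry pieces of other tissue, and lists of genes typical of muscle, retina, lens, liver, skin and nerve were therefore ranked beside the heart genes. In such a mixed sample, fewer cells of a type and less RNA per cell cannot be told apart.

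The arrays gave a linear signal intensity per probe set and no detection calls. A percentile is the place of a probe set among the 15502 of its own array, with 100 for the brightest. It orders brightness and not transcript number, since probe sets bind with different strength. In the 1539 genes with more than 1 named probe set, the highest and lowest differed by a median of 24.0 percentile points, and 279 of them (18.1%) spanned 50 points or more. A gene is given by the probe set that ranked highest on average, unless another is named. Median signals were 53.8, 61.7 and 41.4 on arrays 1, 2 and 3, and 25.3% to 31.4% of probe sets lay under 16, where order and size are least certain. The ratio of 3′ to 5′ signal of GAPDH, a sign of RNA integrity, was 2.74, 2.34 and 2.52. That of the muscle actin acta1 was 20.1, 14.2 and 12.0. Spearman correlations across all probe sets were 0.970 (arrays 1 and 2), 0.976 (1 and 3) and 0.971 (2 and 3), and no probe set had identical values on a pair of arrays.

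The brightest named genes were those of the translation machinery. Of the 25 brightest genes, 20 encoded cytosolic ribosomal proteins and 2 belonged to the list of translation factors. The brightest of all was COX1, the mitochondrially encoded catalytic subunit of cytochrome c oxidase, with signals of 11271, 13671 and 10966 on arrays 1, 2 and 3 (11969 ± 1482, SD, n = 3). It held rank 1 on every array, and its other probe sets lay close behind at mean percentiles of 99.96 and 99.73. The brightest ribosomal protein gene was rpl19, with signals of 8197, 10446 and 8739 and ranks of 9, 4 and 3. It was followed by rps25, rpl26, rpl24, rps14, rpl27a, rpl35 and rpl30, and then by rps4x, rpl37, rpl36a, rpl21, rps27a, rps12, rpl4, rpl3, rps3a, rpl18, rpsa and rps23. The translation factors were rack1, a scaffold protein of the small ribosomal subunit (7917, 9674 and 7915), and eef1a1l1, an elongation factor that brings aminoacyl-tRNA to the ribosome (6951, 8543 and 6945). On all of these genes the signal was highest on array 2, the array with the highest median, while rpl21, for example, held ranks of 23, 24 and 22.

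The remaining genes among the brightest 25 were a globin and a claudin. The embryonic alpha globin gene hbae3, which encodes part of the haemoglobin of primitive red cells, gave 7961, 10308 and 7977 and ranked 12, 5 and 10. The claudin gene cldng, of a family that forms tight junctions, gave 8861, 10132 and 8505, but its other probe sets had mean percentiles of 98.8, 82.8 and 23.5. Its place among the brightest therefore holds for that probe set alone. Probe sets shared by several genes were as bright and cannot be assigned to a single gene. A probe set annotated to the type I keratin genes cyt1 and cyt1l held rank 2 on every array. A probe set for 3 embryonic beta globin genes ranked 16, 17 and 18, and a probe set for 2 embryonic alpha globin genes ranked 36, 39 and 28. A probe set annotated to 12 genes, 11 of them named as gamma crystallins of the lens, ranked 46, 53 and 15.

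**Figure D1:**
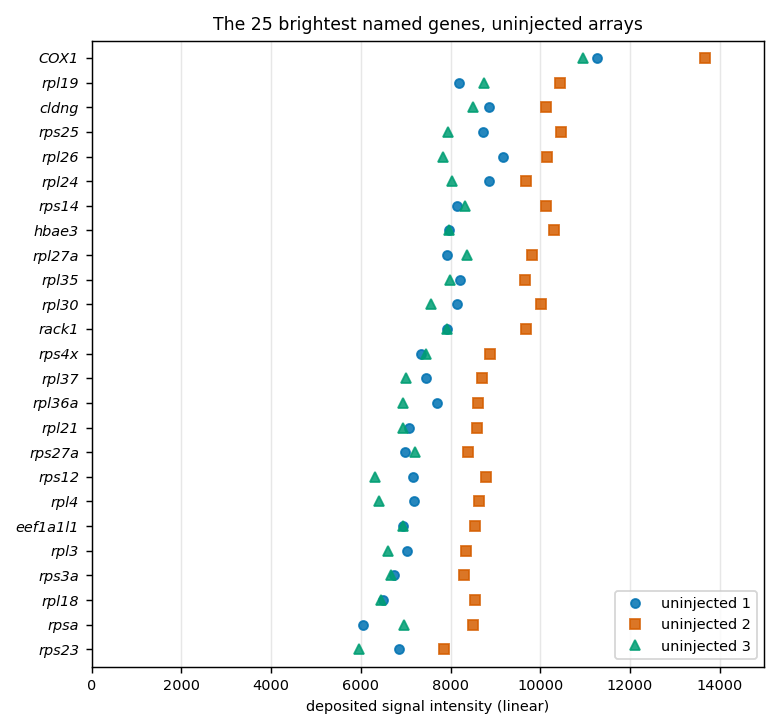
Deposited linear signal intensity (horizontal axis, from 0) of the 25 brightest named genes on uninjected arrays 1, 2 and 3, 1 point per array, ordered by mean percentile. COX1 is brightest at 11271, 13671 and 10966, and array 2 lies to the right for every gene shown, as does its median over all probe sets.

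Over the 100 brightest named genes, 66 encoded ribosomal proteins, 9 were translation factors, 8 were cytoskeletal or housekeeping genes, 4 were epidermal, 3 erythroid, 3 of liver and yolk and 1 of skeletal muscle, and 6 were in no list. Of these 100, 90 were among the top 100 of all 3 arrays. No member of the heart lists was among them. The skeletal muscle gene was actc1b, an alpha actin of fast and slow body muscle, with signals of 6580, 4437 and 6122. It ranked 33 and 36 on arrays 1 and 3 and 136 on array 2. The apolipoprotein gene apoa1a, made in liver and yolk syncytial layer, gave 6384, 3560 and 3792 and ranked 40, 159 and 105, so it was brightest on array 1. Probe sets of the ribosomal protein genes together held 12.4%, 12.97% and 13.9% of all signal on arrays 1, 2 and 3. Those of skeletal muscle held 1.27%, 0.613% and 1.16%, those of epidermis 1.86%, 1.61% and 1.63%, those of erythroid cells 0.699%, 0.853% and 0.824%, and those of the cardiac sarcomere 0.109%, 0.111% and 0.0797%.

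The label of the samples was set against genes that define heart muscle. Of the 7 such genes, 5 had a named probe set of their own. The regulatory myosin light chain gene myl7, expressed throughout zebrafish heart muscle, gave signals of 110, 428 and 94.2 on arrays 1, 2 and 3, at percentiles of 64.9, 86.6 and 67.2. The cardiac myosin light chain gene cmlc1 gave 249, 915 and 150 at percentiles of 80.5, 94.4 and 76.3. The cardiac troponin T gene tnnt2a, which anchors the troponin complex to tropomyosin, gave 151, 342 and 99.8 at percentiles of 71.5, 83.0 and 68.4. These 3 genes were above the middle of every array and stood highest on array 2, well clear of the others. The ventricular myosin heavy chain gene myh7, formerly vmhc, gave 145, 75.2 and 37.9 and was highest on array 1. The homeobox gene nkx2.5, an early regulator of heart muscle, lay near the bottom with signals of 5.79, 14.85 and 5.45. The atrial myosin heavy chain gene myh6 and the natriuretic peptide gene nppa had no such probe set and were not analysed here. Markers of heart muscle and of other tissues were thus measured side by side in all 3 preparations. Of the defining markers with a probe set, those at a mean percentile of at least 75 were 1 of 5 for heart muscle, 5 of 5 for skeletal muscle, 3 of 4 for retina, 4 of 4 for liver, 3 of 4 for epidermis, 3 of 3 for neurons and 3 of 5 for red cells. They were 1 of 3 each for endothelium, lens and leukocytes. Of the heart muscle genes, tnnt2a and myl7 fell just under that cut, at mean percentiles of 74.3 and 72.9. Above the middle by mean percentile were 4 of 5 for heart muscle and 2 of 3 each for endothelium, lens and leukocytes. Skeletal muscle and red cells had 5 of 5 each there, and retina and liver 4 of 4 each. Epidermis had 3 of 4 and neurons 3 of 3. Over the whole array, 5247 of the 8793 named genes had a probe set at a mean percentile of at least 50. A count of 2 of 3 is near that share. The share of all named genes at 75 was not counted.

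Of the 32 listed sarcomere genes, 14 had a named probe set, and their percentiles ran from the top to the bottom of the arrays. The median percentile was 67.8, 59 and 59.9 on arrays 1, 2 and 3 (62.3 ± 4.77, SD, n = 3). The cardiac alpha actin gene actc1a was the brightest, with signals of 1175, 1501 and 834 at percentiles of 96.7, 97.0 and 96.2. The tropomyosin gene tpm4a followed at 88.0, 92.1 and 88.0. The nexilin gene nexn, whose product is an actin-binding protein of the Z-disc, stood at 86.5, 74.9 and 89.5. Nexn was thus lowest on the array where myl7, cmlc1 and tnnt2a were highest. The giant elastic protein titin, encoded by ttn.2, stood at 90.2, 54.4 and 74.6. Its signals of 494, 76.7 and 137 put array 2 lowest as well, and a further probe set of the gene with signals of 447, 59.5 and 83.5 had the same order. The remaining probe sets of ttn.2 were faint, at mean percentiles of 12.5 and 5.08. The first of these was lowest on array 3 and the other on array 2. The myosin chaperone gene unc45b stood at 59.08, 64.0 and 52.5, and myh7 at 70.7, 53.9 and 48.3. Fainter were the Z-disc gene ldb3a (45.5, 31.6 and 51.8), the myosin-binding protein C gene mybpc3 (42.2, 31.8 and 29.7) and the alpha-actinin gene actn2b (36.3, 15.2 and 25.4). The Xin repeat gene xirp1 stood at 23.5, 16.1 and 15.4. The cardiac troponin C gene tnnc1a was the lowest on average at 9.39, 30.2 and 8.48, with signals of 4.28, 21.5 and 3.01. Those signals lie at or near the weak range, yet array 2 was again the highest. Of the 4 light chain and troponin genes myl7, cmlc1, tnnt2a and tnnc1a, grouped after their values were seen, 4 were highest on array 2. Titin, nexilin, ldb3a and actn2b, also picked out after their values were seen, were lowest there. Over all probe sets with a mean percentile of at least 50, 38.9% were highest and 32.7% lowest on array 2. Tnnc1a, ldb3a and actn2b lay under that cut. In the rest of the list, actc1a, tpm4a and unc45b were highest on array 2, and myh7, mybpc3 and xirp1 on array 1. The cause of these differences was not tested. As the preparations are mixed, ranks do not place the RNA of this list in heart cells.

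Transcription factors of the heart covered the same span of ranks but moved less between arrays. Of 27 listed, 22 were measured, with a median percentile of 60.7, 60.3 and 64.3 (61.7 ± 2.22, SD, n = 3). The COUP family nuclear receptor gene nr2f1a, needed for atrial identity in zebrafish, was the brightest, with signals of 507, 1114 and 466 at percentiles of 90.5, 95.5 and 92.1. Its relative nr2f2 stood at 89.5, 92.9 and 92.5 and the T-box gene tbx2b, active in the atrioventricular canal, at 87.8, 88.7 and 90.7. Isl1a, a LIM homeobox gene of heart progenitors that motor and sensory neurons also express, stood at 88.3, 83.8 and 88.7, but its second probe set at 39.7, 31.0 and 39.8. These factors are also used outside the heart, and their ranks do not place the RNA in heart cells.

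The middle ranks held mef2d (77.3, 77.8 and 80.5), prrx1a (77.2, 75.3 and 71.6), mef2aa (75.25, 63.6 and 76.9) and tbx3a (67.3, 73.2 and 71.0). The basic helix-loop-helix gene hand2, required for ventricle growth in zebrafish, gave signals of 122, 211 and 98.5 at percentiles of 67.1, 75.1 and 68.1. Near it were irx1a (62.4, 69.1 and 71.9), foxn4 (63.2, 70.1 and 67.4), irx4a (58.4, 56.5 and 61.2) and mef2ca (58.9, 56.9 and 52.35). Other probe sets ranked lower, at mean percentiles of 35.1 and 20.8 for foxn4 and 44.3 for mef2d. The measured GATA and NK family genes of this list ranked low on this array design, unlike hand2. The GATA gene gata2a of the endothelial list stood higher, at 65.0, 67.3 and 64.9. Gata5 stood at 36.2, 43.5 and 32.8, gata6 at 35.1, 39.3 and 29.7, and gata4 at 28.5, 29.1 and 17.7. Low too were hey2 (35.8, 36.9 and 25.3), tbx1 (28.15, 35.6 and 32.05), nkx2.7 (30.5, 34.1 and 29.8), tbx20 (15.1, 20.5 and 19.2), tbx5a (22.4, 8.44 and 21.0) and nkx2.5 (12.4, 24.2 and 14.2). A faint probe set does not show that the gene was silent.

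The 11 measured genes of cardiac metabolism, conduction and ion handling split into bright and faint members with few between. Their median percentile was 48.1, 39.0 and 37.2 (41.4 ± 5.83, SD, n = 3). The heart-type fatty acid binding protein gene fabp3 gave signals of 2958, 4437 and 2499 at percentiles of 98.9, 99.1 and 99.0, the brightest of all heart list members. The connexin gene gja1b, whose product forms gap junctions, gave 1735, 1471 and 1366 at percentiles of 98.0, 97.0 and 98.0. The mitochondrial creatine kinase gene ckmt2a stood at 90.2, 79.4 and 92.6, the calcium pump gene atp2a2b at 77.9, 83.6 and 81.5 and the sarcalumenin gene srl at 90.2, 78.7 and 70.6. The second SERCA2 gene atp2a2a stood much lower, at 43.7, 36.4 and 25.98. Low too were the calsequestrin gene casq2 (48.1, 37.9 and 37.2), the C-type natriuretic peptide gene nppc (38.9, 39.0 and 30.5) and the Nodal co-receptor gene tdgf1 (28.4, 35.2 and 28.4). The potassium channel gene kcnh6a (31.0, 22.9 and 25.4) and the L-type calcium channel gene cacna1c (17.5, 16.1 and 18.8), both needed for a regular heartbeat, were among the faintest. As with the transcription factors, ranks in these mixed preparations do not place the RNA of this list in heart cells, the bright fabp3, gja1b and ckmt2a included.

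**Figure D2:**
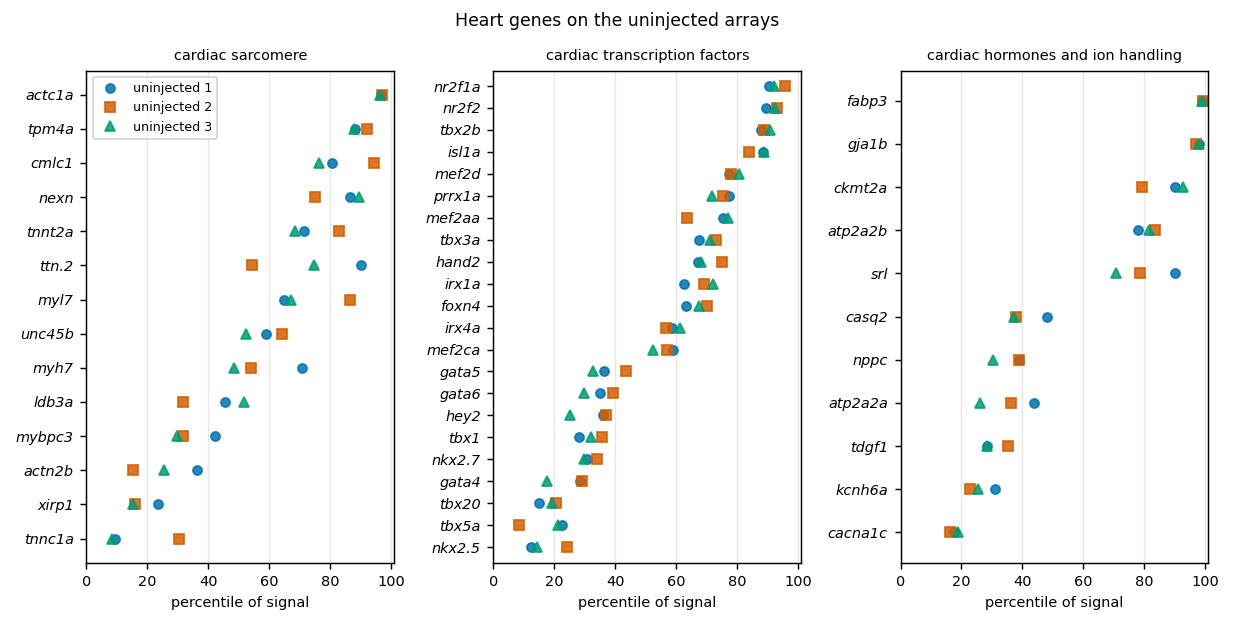
Percentile of signal within each array (horizontal axes, 0 to 100) for every measured gene of the cardiac sarcomere (14), cardiac transcription factor (22) and cardiac hormone and ion handling (11) lists, 1 point per array. Array 2 lies to the right for myl7, cmlc1, tnnt2a and tnnc1a and to the left for ttn.2, nexn, ldb3a and actn2b, while the points of most transcription factors lie close together.

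Endocardium and endothelium, the inner lining of heart and vessels, were represented by 25 of 49 listed genes with a median percentile of 44.4, 50.9 and 44.0 (46.4 ± 3.85, SD, n = 3). The brightest was the water channel gene aqp1a.1, which red cells also express, at 93.4, 95.6 and 91.1. The proteoglycan gene spock3, active in endocardium, stood at 92.0, 87.25 and 92.55, which does not place its RNA there. The ETS factor gene fli1 stood at 86.0, 86.1 and 87.8 and the flow-responsive factor gene klf2b at 85.6, 86.1 and 87.3, so both held their place on all 3 arrays. The defining VEGF receptor gene kdrl gave signals of 131, 192 and 104 at percentiles of 68.7, 73.4 and 69.3. The receptor gene tie1 was faint, with signals of 18.9, 20.1 and 8.38, and at the bottom were notch1b (1.32, 6.05 and 1.57) and ephb4a (1.68, 2.49 and 1.78). Of the defining genes, fli1 (formerly fli1a), kdrl and tie1 were measured, and cdh5 and nfatc1 had no named probe set of their own. For epicardium and smooth muscle, 18 of 34 genes were measured, at a median of 67.7, 64.5 and 61.5. The actin-binding calponin gene cnn2 stood at 89.6, 93.2 and 89.5, and the smooth muscle genes tagln at 90.9, 94.2 and 86.6, acta2 at 88.8, 90.5 and 83.9 and tagln2 at 84.2, 86.2 and 83.9. The epicardial factors tbx18 (19.1, 19.7 and 21.8) and wt1a (16.8, 25.5 and 6.50) ranked lowest.

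Blood genes ranged over all ranks, and their globins alone ran from a mean percentile of 99.95 for hbae3 to 13.8 for hbba2. The 22 measured of 50 erythroid genes had a median percentile of 49.6, 70.2 and 59.3 (59.7 ± 10.3, SD, n = 3). Beside hbae3, the embryonic beta globin gene hbbe2 gave 4980, 6867 and 4895, the antioxidant enzyme gene prdx2 3743, 5660 and 3246, and the anion exchanger gene slc4a1a 561, 1166 and 687. The haem synthesis gene alas2 gave 143, 379 and 182 and the erythroid master regulator gata1a 41.6, 115 and 64.0. In each of these the signal was highest on array 2. Lowest were fech (1.24, 13.6 and 4.32) and slc25a37 (1.48, 8.37 and 0.68). Leukocyte genes ranked low, with 30 of 58 measured and a median of 43.0, 43.5 and 42.7. The lysozyme gene lyz, of neutrophils and macrophages, was bright at 97.9, 98.1 and 98.5, followed by coro1a (86.2, 83.0 and 80.3), the mast cell protease gene cpa5 (89.6, 84.1 and 60.3) and cebpb (67.5, 75.5 and 73.8). The lymphocyte recombinase gene rag1 (8.27, 3.45 and 1.68) and the antigen presentation gene cd74a (3.50, 3.41 and 0.66) were the faintest. Ranks of this list do not place the RNA in leukocytes, and cpa5 was low on array 3 as exocrine pancreas genes were.

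The median rank of body muscle genes lay above that of the sarcomere list on each array. Of 83 listed, 48 were measured, at a median percentile of 85.04, 68.1 and 71.4 (74.8 ± 8.98, SD, n = 3), and 23 had a mean percentile of at least 75. Beside actc1b, the parvalbumin genes, which encode calcium buffers of fast fibres, gave 2777, 1788 and 2603 for pvalb1 and 3502, 1619 and 2858 for pvalb2. The fast myosin light chain gene mylpfa gave 2468, 1216 and 1387 and the muscle creatine kinase gene ckma 920, 500 and 596. All 5 were lowest on array 2. The myogenic factors myf5 (12.9, 20.4 and 11.0) and myf6 (2.59, 2.95 and 3.33) ranked at the bottom.

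Photoreceptor genes, which belong to the eye and not to the heart, reached the top ranks. Of 90 listed retina genes, 47 were measured with a median of 54.5, 47.8 and 54.3 (52.2 ± 3.77, SD, n = 3). The cone transducin subunit gene gngt2b gave signals of 4469, 2519 and 3312 at percentiles of 99.3, 98.5 and 99.2. The blue-sensitive opsin gene opn1sw2 gave 2132, 1127 and 1244, the ultraviolet-sensitive opsin gene opn1sw1 1295, 534 and 755 and the cone transducin alpha subunit gene gnat2 1060, 478 and 809. All 4 were highest on array 1 and lowest on array 2. The rod transducin gene gnat1 was fainter, with signals of 125, 60.0 and 68.6, and the retinal homeobox gene rx1 (7.99, 12.5 and 7.93) and guanylate cyclase activator gene guca1aa (0.819, 0.0968 and 0.0323) had the lowest percentiles.

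Lens genes had the lowest median of all lists, 16.3, 17.0 and 18.2 over 14 of 66 genes, of which 9 lay under a mean percentile of 25 and a few crystallins were very bright. Crybb1, a beta crystallin that helps keep the lens clear, gave signals of 1376, 2628 and 3948 at percentiles of 97.32, 98.6 and 99.4. Cryba4 gave 1536, 2841 and 3324, the gamma crystallin gene crygmxl2 652, 1784 and 1688 and the lens filament gene bfsp2 47.6, 83.7 and 137. All 4 were lowest on array 1. Cryaba (2.29, 4.30 and 3.79) and crygs1 (1.46, 0.92 and 2.7) had the lowest percentiles.

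Liver and yolk genes encode plasma proteins and lipid carriers. Of 102 listed, 63 were measured, at a median percentile of 78.4, 63.1 and 59.0 (66.9 ± 10.2, SD, n = 3). The apolipoprotein gene apoa2 gave 5835, 6066 and 3435, the betaine-homocysteine methyltransferase gene bhmt 5568, 5054 and 3985 and the transferrin gene tfa 2963, 3046 and 1630. The liver fatty acid binding protein gene fabp10a, a marker of hepatocytes, gave 530, 356 and 78.7. The vitellogenin gene vtg2 (3.29, 2.72 and 5.21) and the lipase gene lipca (0.245, 0.826 and 9.47) had the lowest percentiles. Genes of exocrine pancreas and intestine had a median of 51.3, 50.6 and 30.6 over 37 of 60 genes (44.2 ± 11.7, SD, n = 3). The galectin gene lgals2b gave 3514, 3223 and 1417, the cathepsin gene ctsla 2481, 1667 and 1148, the intestinal fatty acid binding gene fabp1b.1 3074, 1790 and 659 and the trypsin gene prss1 1702, 2835 and 553. All 4 signals were lowest on array 3, although after normalization ctsla was about level on arrays 2 and 3 (10.44 and 10.46 on the log2 scale). The chitinase genes chia.3 and chia.4 ranked at the bottom, between 1.75 and 11.9.

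Skin and nerve genes had the highest medians of the tissue lists, although with the lowest probe set of each gene neurons and glia (70.75) came under skeletal muscle (73.2). For epidermis, 66 of 86 genes were measured at 88.7, 85.4 and 84.5 (86.2 ± 2.23, SD, n = 3), and 41 had a mean percentile of at least 75. The S100 calcium-binding genes icn2 (5060, 5688 and 4301) and icn (5692, 5278 and 3881) and the keratin genes krt1-19e (4779, 4837 and 3453) and krt4 (3580, 4298 and 3632) led the list. Col17a1b and krt95 were lowest, at mean percentiles of 19.9 and 7.15. For neurons and glia, 84 of 132 genes were measured at 85.8, 80.5 and 84.2 (83.5 ± 2.73, SD, n = 3). They were led by the beta tubulin gene tubb2b (3661, 5281 and 3829), the radial glia gene fabp7a (3015, 3776 and 3193), marcksl1b (2291, 3068 and 2520) and the neural factor gene sox11a (2044, 2910 and 1757). The RNA-binding protein gene elavl3, a marker of young neurons, gave 1409, 1867 and 1378. The lowest were the adhesion gene ncam1b and the tyrosine hydroxylase gene th, at mean percentiles of 14.45 and 12.95. Cartilage and pigment genes stood at 70.7, 59.3 and 56.7 over 33 of 56 genes. Their collagen genes col1a1a, col1a2, col2a1a and col11a1a led with mean percentiles of 98.8, 98.2, 97.9 and 92.6, and ucmaa and acanb were lowest.

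Genes of general cell function filled the top. Ribosomal protein genes had a median percentile of 99.6 on every array over 74 measured genes. The lowest of that list, rps27l and rps19bp1, were at 53.1 and 53.3, and rps19bp1 encodes a binding partner rather than a ribosomal protein. Cytoskeletal and housekeeping genes stood at 97.5, 97.7 and 97.6. They were led by actc1b, which is also in the muscle list, and by ppib, actb1 and tmsb4x, with lmna and b2m lowest. Translation factors stood at 97.4, 97.7 and 97.6, led by rack1, eef1a1l1, naca and eef2b, with npm1b and eef1a1b lowest. Nuclear genes of oxidative phosphorylation stood at 95.1, 94.8 and 92.7, led by the ATP synthase genes atp5f1b, atp5pf, atp5mc3b and atp5l, while uqcc3 and sdhaf3, which encode assembly factors, were lowest. Glycolysis stood at 93.5, 88.7 and 90.6, led by gapdhs, aldocb, tpi1b and ldhba, with aldoca and pfkma lowest.

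In the order of all 20 list medians, there were 3 steps at which the values of neighbouring lists on the 3 arrays did not overlap. These steps lay below the ribosomal proteins, below the translation factors and above lens. The arrays of each other list overlapped those of the list next to it. Lists farther apart could still be clear of each other, and the 3 medians of skeletal muscle (68.1 to 85.04) all lay above those of the sarcomere, of epicardium and smooth muscle and of the cardiac transcription factors. Those last 3 lists overlapped one another.

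**Figure D3:**
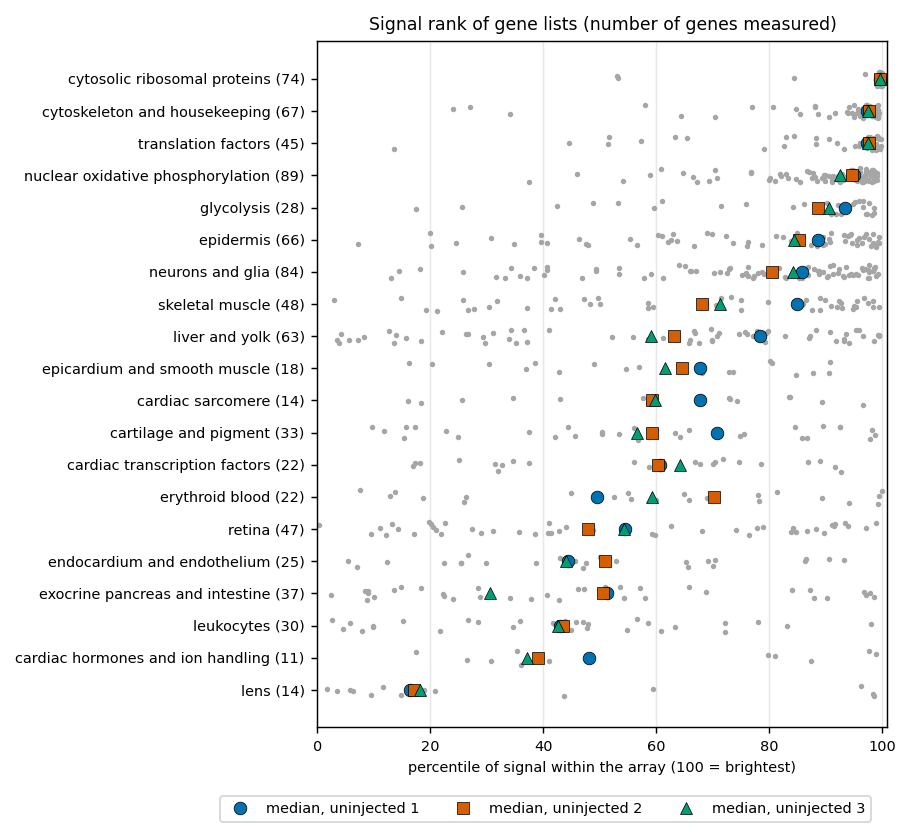
Percentile of signal (horizontal axis, 0 to 100) for 20 gene lists, ordered by their mean median, with the number of genes measured in brackets. Grey points are single genes at their mean percentile over the arrays and coloured symbols are the list's median on each array; ribosomal proteins sit at 99.6, epidermis and neurons at 80.5 to 88.7, the sarcomere at 59 to 67.8 and lens at 16.3 to 18.2.

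Differences among the 3 arrays were measured on log2 signals after quantile normalization, which gives the arrays a common distribution. The log2 range is the highest minus the lowest of the 3 arrays. Ranges were read only for the 7755 probe sets with a mean percentile of at least 50, since faint signals vary most. A probe set could pass this filter through 1 bright array, as pmelb did at percentiles of 78.1, 25.5 and 47.4. The median range was 0.45, or 1.37-fold, and the 90th percentile was 1.01. A range of at least 2, which is 4-fold, was reached by 78 probe sets (1.01%), and a range of at least 1, which is 2-fold, by 804 (10.4%). These counts describe the spread of 3 preparations and are not tests. Over all kept probe sets, 27.9% were highest on array 1, 38.9% on array 2 and 33.2% on array 3, and 35.0%, 32.7% and 32.3% were lowest on arrays 1, 2 and 3. Counts in the lists are read against these shares.

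The most constant bright genes belonged to basic cell functions, as did most of the 100 brightest named genes, of which 66 encoded ribosomal proteins. Among the 500 brightest named genes, the 10 with the smallest log2 range were COX1, psmd6, rpl21, rps15, septin7a, eef1a1l1, rpl23a, ptmaa, rpl37 and atp5mc3a, with ranges between 0.00 and 0.03. Psmd6, a subunit of the proteasome lid, held ranks 512, 516 and 518 and is an example outside the ribosome. A range of 0 for COX1 follows from its holding rank 1 on every array, since quantile normalization gives equal ranks equal values. Rpl21, rps15, eef1a1l1, rpl23a and rpl37 had mean percentiles above 99.6, and so near the top the room for a range is limited. The second probe set of rpl21, at a mean percentile of 23.7, had a range of 1.31. Of the 74 ribosomal protein genes none had a range of 1 or more, nor did any of the 87 kept oxidative phosphorylation genes, which were nonetheless lowest on array 3 in 66 cases. None of the 13 kept cardiac transcription factors and none of the 11 kept endothelial genes reached a range of 1. Over all kept probe sets 10.4% did, a share at which lists this short would hold few such genes. Their median ranges were 0.47 for the transcription factors and 0.34 for the endothelial genes, beside 0.45 over all kept probe sets.

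The gene that varied most was hbbe3, an embryonic beta globin gene, with signals of 36.2, 1171 and 63.95 on arrays 1, 2 and 3 and a log2 range of 4.78. Array 2 stood far above both others, while hbae3 and hbbe2 differed between arrays by 0.12 and 0.22 only. Both were also highest on array 2, with ranks of 12, 5 and 10 for hbae3 and 86, 64 and 68 for hbbe2. So near the top the room for a rise is limited, and their ranges are not like for like with that of hbbe3. The adult-type alpha globin gene hbaa1 gave 19.1, 142 and 65.3, a range of 2.67, and was also highest on array 2. Of the 15 kept erythroid genes, 14 were highest on array 2 and 13 were lowest on array 1, 6 had a range of at least 1 and 2 of at least 2. Their median log2 difference of array 1 minus array 2 was -0.78. Globin genes have near-identical copies that can bind the same probes, so the identity of the varying globin is uncertain.

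Genes of heart muscle light chains and troponin T, grouped after their values were seen, were also highest on array 2. On the log2 scale cmlc1 stood at 7.91, 9.57 and 7.55, with a range of 2.02, and was among the 8 probe sets that stood apart high on array 2. For myl7 the values were 6.72, 8.49 and 6.88 (range 1.77) and for tnnt2a 7.18, 8.13 and 6.96 (range 1.17). Of the 9 kept sarcomere genes, 6 were highest on array 2, 6 were lowest on array 3 and 6 had a range of at least 1. The other way lay ttn.2, with a range of 2.90 and its highest value on array 1. Myh7 was also highest on array 1 (7.13, 5.97 and 5.56, range 1.56). Nexn was lowest on array 2 (8.47, 7.44 and 8.82, range 1.38). The median log2 difference of the sarcomere list was 0.53 for array 2 minus array 3.

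Body muscle went the opposite way. Of 32 kept genes, 25 were highest on array 1, 27 were lowest on array 2 and 22 had a range of at least 1. The fast myosin heavy chain gene myhz1.3 gave signals of 1127, 214 and 1240, a range of 3.06. The fast-fibre calcium pump genes atp2a1 (1747, 344 and 697) and atp2a1l (332, 22.2 and 65.3) and the slow myosin gene smyhc1 (397, 62.7 and 102) had ranges of 2.59, 4.1 and 2.87. In all 4, array 2 was the lowest. Array 2 was also the lowest for the parvalbumin gene pvalb6 (544, 112 and 248), a member of the neuron list, and for the oxygen-binding myoglobin gene mb (222, 43.0 and 57.9), which is in no list. The median log2 difference of array 1 minus array 2 over the kept muscle genes was 1.2.

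Retina, pigment and cartilage genes shared the low values of array 2. Of 23 kept retina genes, 17 were highest on array 1, none on array 2, 21 were lowest on array 2 and 17 had a range of at least 1. The retinoid isomerase gene rpe65a, of the pigment epithelium that regenerates visual pigment, gave 498, 28.1 and 51.1 with a range of 4.37. The melanosome gene pmelb gave 216, 16.2 and 36.2, a range of 3.92. The cartilage matrix gene matn1 gave 723, 146 and 472, a range of 2.54, so that array 1 and array 3 lay together above array 2. Of the 22 kept cartilage and pigment genes, 14 were lowest on array 2 and 12 had a range of at least 1. All 4 kept lens genes were highest on array 3 and lowest on array 1 with ranges of at least 1, and their median difference of array 1 minus array 3 was -1.75. The crystallins of the lens thus did not follow the retina genes on these arrays.

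Liver genes made up the largest share of the variable genes that belonged to a list, 11 of 28. Of 40 kept liver and yolk genes, 34 were highest on array 1, 26 were lowest on array 3, 27 had a range of at least 1 and 10 of at least 2. The complement gene c3a.1 gave signals of 379, 48.1 and 45.2, the apolipoprotein B gene apoba 519, 67.8 and 89.7 and the ceruloplasmin gene cp, of copper transport, 438, 60.2 and 65.9. The carboxylesterase genes ces3 (387, 51.6 and 44.5) and ces2a (797, 173 and 112) and the gene leg1.1 (435, 124 and 58.0) behaved alike. All had ranges between 2.48 and 3.19 and were highest on array 1. The median log2 difference was 1.14 for array 1 minus array 2 and 1.40 for array 1 minus array 3.

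Exocrine pancreas genes were low on array 3. The elastase genes ela3l (90.2, 178 and 15.3) and cela1.6 (351, 536 and 65.3) and the chymotrypsin gene ctrb.1 (498, 862 and 98.6) had ranges of 2.99, 2.44 and 2.55. Cpa5 (471, 362 and 67.4), apoda.2 (299, 444 and 69.8) and the neutrophil myeloperoxidase gene mpx (171, 96.0 and 21.3) were low on the same array. For mpx this rests on a single probe set, as its others were faint, at mean percentiles of 17.2, 8.79 and 4.26. Of 17 kept genes of pancreas and intestine, 15 were lowest on array 3 and 13 had a range of at least 1. The value of ela3l on array 3 is the only signal under 16 among the 78 widest probe sets.

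A further set was low on array 1 and high on arrays 2 and 3. The matricellular gene ccn1 gave signals of 41.8, 425 and 266, a range of 3.14, and the AP-1 related gene jdp2b 88.1, 709 and 542, a range of 2.98. The AP-1 subunit gene junba gave 250, 1341 and 1299, a range of 2.7, and its partner fosab 35.2, 245 and 141 on the probe set with the largest range, 2.57. Fosab had 4 named probe sets, and array 1 was lowest on every one. The zinc finger gene egr1 (64.5, 344 and 262) and the cytokine signalling inhibitor gene socs3a (177, 1136 and 610) had ranges of 2.39 and 2.46. These are immediate early genes, which cells switch on within minutes of a stimulus without new protein synthesis. A list of 63 such genes was drawn up after these values were seen, so its counts describe the arrays and support nothing further. Of its 39 kept members, 29 were lowest on array 1, 19 had a range of at least 1 and 6 of at least 2. Over all kept probe sets the shares were 35.0%, 10.4% and 1.01%. The mean log2 signal of the 39 members was 7.50, 8.41 and 8.26 on arrays 1, 2 and 3. The flow-responsive klf2a and klf2b, which belong to the endothelial list, had ranges of only 0.25 and 0.18.

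**Figure D4:**
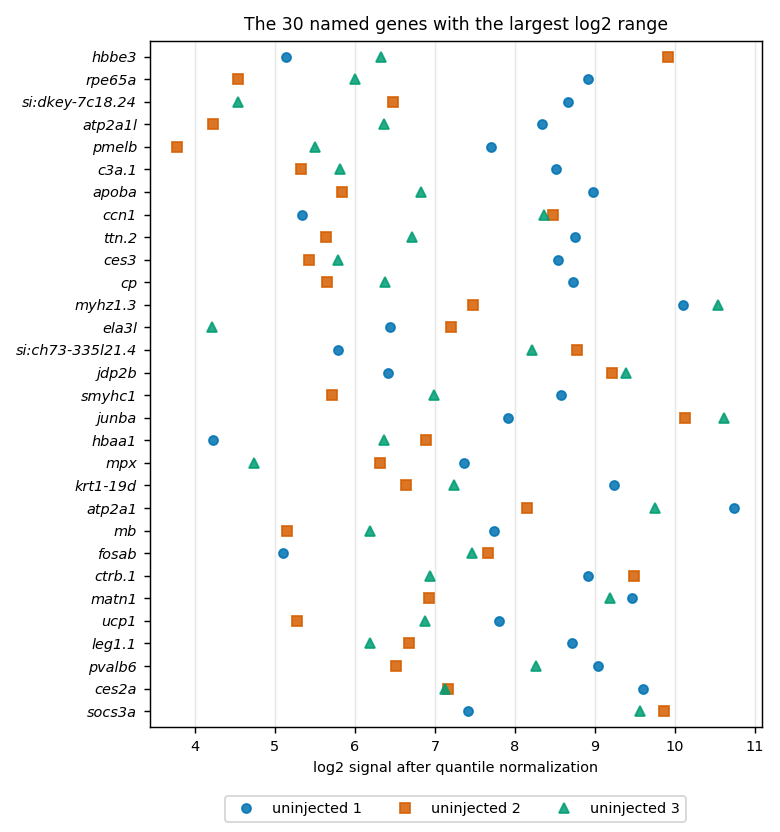
Quantile-normalized log2 signal (horizontal axis) of the 30 named genes with the largest log2 range among those with a mean percentile of at least 50, 1 point per array. Hbbe3 has the largest range, 4.78, with array 2 high; rpe65a, pmelb, c3a.1 and cp have array 1 high; ccn1, jdp2b, junba, fosab and socs3a have array 1 low.

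Each of the 78 widest probe sets was assigned to the array farthest from the middle value. Array 1 stood apart in 37 (47.4%, 95% Wilson interval 36.74% to 58.4%), of which 25 were high and 12 low. Array 2 stood apart in 26, with 8 high and 18 low, and array 3 in 15, with 2 high and 13 low. Among probe sets with a mean percentile of at least 75 the shares were 32.4%, 35.3% and 32.4% for arrays 1, 2 and 3, and array 1 did not lead there. The interval covers counting error alone and assumes independent probe sets, which those of an array are not. Because the filter can be passed through 1 bright array, it can add to the counts of arrays standing apart high. Besides cmlc1 and hbbe3, the annotated gene LOC100002043 (71.6, 221 and 34.5) was high on array 2, and lctla (39.7, 73.7 and 136) was the sole named gene high on array 3. Ucp1, a mitochondrial uncoupling protein gene, was low on array 2 (231, 46.7 and 93.9). The remaining genes of the 30 widest were si:dkey-7c18.24 (421, 109 and 18.8), si:ch73-335l21.4 (57.7, 527 and 240) and the keratin gene krt1-19d (624, 120 and 121). The 78 probe sets included 58 with 1 symbol, for 54 genes. Of these genes 7 had another probe set past the filter, which had a range of at least 1 in 6 genes and of at least 2 in 2.

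Of 54 kept epidermal genes 8 had a range of at least 1 (14.8%), near the 10.4% of all kept probe sets. Of 68 kept neuronal genes 20 did (29.4%), above that share. Median ranges of the epidermal and neuronal genes were 0.56 and 0.64. Of the same 68, 40 were lowest on array 2. Mean log2 signals of whole lists differed most between arrays for erythroid genes (6.16, 7.21 and 6.60), skeletal muscle (7.71, 6.67 and 7.22) and liver and yolk (7.0, 6.17 and 5.97). They differed least for housekeeping genes (10.08, 10.11 and 10.07) and ribosomal proteins (12.29, 12.31 and 12.25). Array 2 was thus the highest for blood and the lowest for body muscle and retina, array 1 the highest for liver and the lowest for blood, and array 3 the lowest for liver and pancreas and the highest for lens. Median signal, GAPDH 3′ to 5′ ratio and acta1 3′ to 5′ ratio also differed between the 3 arrays, as given above, and their part in these differences was not tested.

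**Figure D5:**
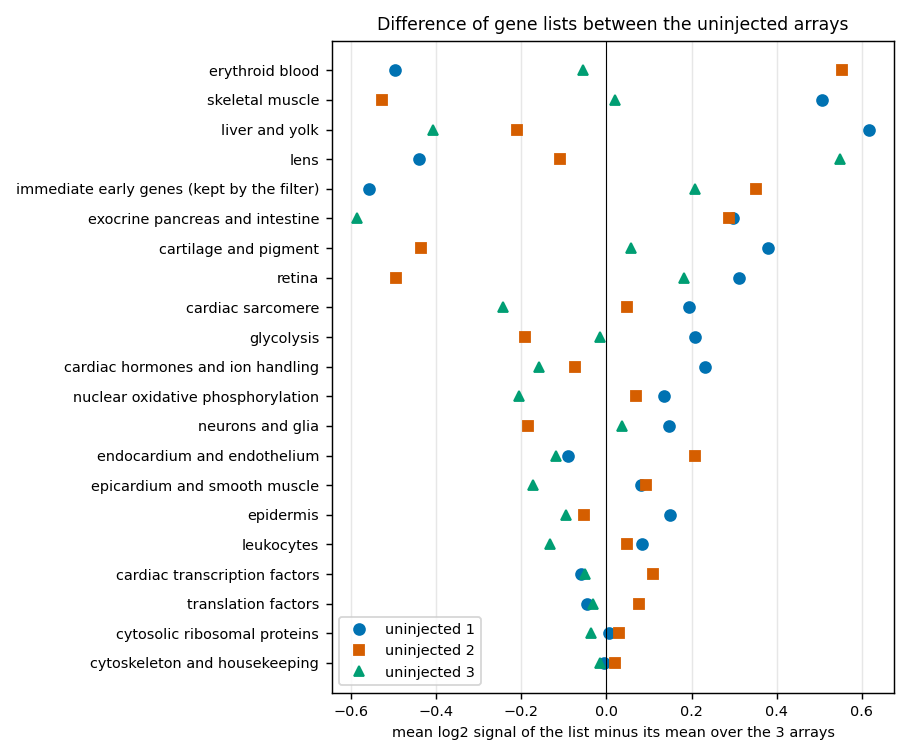
Mean quantile-normalized log2 signal of each gene list on each array minus the list's mean over the 3 arrays (horizontal axis, log2 units). Erythroid genes are lowest on array 1 and highest on array 2 (6.16 and 7.21 before centring), skeletal muscle, cartilage and retina are lowest on array 2, liver and yolk highest on array 1 and lens highest on array 3; the immediate early list, chosen after its values were seen, holds only its 39 genes past the filter.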

How the data were processed

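Total RNA of purified hearts was labelled with biotin and hybridized to Affymetrix zebrafish arrays, 1 per sample, per the labels' protocols, of which the extraction text names tumors and the other fields hearts. The values deposited by the authors are linear intensities of probe sets, and MAS5 is named in the submitters' processing notes; version, scaling target and detection calls are not given in the sources used here. All deposited intensities were above 0, and depth has no meaning for arrays, so that their number (3) limits the precision.

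Of 15617 probe sets, 115 controls were left out. Names came from the platform annotation, with 10679 symbols found in the current gene table: 10795 probe sets had 1 symbol (8793 genes), 135 several and 4572 none. Percentiles were taken within each array, and the 3 uninjected arrays were quantile normalized together on the log2 scale without a pseudocount. Python 3.11.15, numpy 2.4.6, pandas 2.3.3 and scipy 1.17.1 were used. No test between groups was made. The range procedure was run on simulated data with equal noise at all intensities and known changes larger than the threshold. That run does not measure its error on these arrays.

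The arrays were taken by label; the decision to describe them, the 20 gene lists and the thresholds were made with earlier results of these data known, and the immediate early list after these values were seen. Named were the 25 brightest genes, every measured cardiac list gene, the 4 highest and 2 lowest of each other list, the defining markers, the 30 genes with the largest range, up to 6 per array standing apart in each direction, and the 10 most constant of the 500 brightest. Other genes named were chosen after their values were seen.

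Alternatives changed the scaling, the filter, a floor at 16, the probe set of each gene and the arrays included.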

Additional observations from a re-analysis of the deposited data

How the results depend on the processing

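With all arrays, 78 probe sets had a log2 range of at least 2 and 804 of at least 1. Without a filter these were 1162 and 3745, with a mean percentile of at least 25 they were 141 and 1518, and with at least 75 they were 34 and 301. The deposited values without scaling gave 1834 for a range of at least 1. Leaving out each array in turn gave 24 to 52 and 225 to 524. A range over 2 arrays cannot exceed that over 3 of the same values. Leaving out array 1 gave the lowest count at a range of 2 (24), and leaving out array 2 gave 37 there and the lowest at a range of 1 (225). Of the top 50 named genes, 43 were shared by all arrays. Over probe sets with a mean percentile of at least 50, Spearman correlations were 0.911, 0.940 and 0.919 for arrays 1 and 2, 1 and 3, and 2 and 3, and Pearson correlations of log2 signal over all probe sets were 0.954, 0.956 and 0.952. With all probe sets of each gene, the list percentile was 57.1 for the sarcomere, 50.8 for cardiac transcription factors, 39.2 for retina and 77.8 for epidermis. With the lowest probe set of each gene it was 42.8, 36.6 and 80.3 for the last 3. Ranked among probe sets with 1 symbol it was 58.3 for transcription factors, 42.2 for endothelium and 48.3 for retina. On the deposited values, the difference between the highest and lowest array in mean log2 signal was 0.79 for the sarcomere, 0.38 for transcription factors, 0.72 for hormones and ion handling, 0.89 for endothelium and 0.59 for epidermis, and the sarcomere value was 0.80 with all probe sets. With median scaling the order of the arrays turned for housekeeping genes (-0.000189) and ribosomal proteins (-0.095). The share of widest probe sets in which array 1 stood apart was 32.4% at a mean percentile of at least 75, for array 2 it was 35.3% there, and for array 3 it was 32.4% there and 29.9% on the deposited values. Among the other lists 31 further values moved by more than the spread between arrays. Of these, epicardium and smooth muscle came to 45.25 with all probe sets, neurons and glia to 70.75 with the lowest probe set, and the array difference of leukocytes to 0.61 over members with a mean percentile of at least 50. The causes were not tested. No paired analysis was possible because there is 1 group and no test. The 3 arrays, the strength of probe binding and the weak signals under 16 limit every value.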
